A study of Homo sapiens with 2 samples.

Results

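The IFIT, OAS and MX genes are 3 families of antiviral effectors whose transcription is switched on by interferon. The 10 genes described here (IFIT1, IFIT2, IFIT3, IFIT5, OAS1, OAS2, OAS3, OASL, MX1 and MX2) were chosen by symbol from 16951 genes, and all 10 were measured. Type I and type III interferons bind receptors at the cell surface and activate the JAK kinases. These kinases phosphorylate STAT proteins, which join IRF9 in the complex ISGF3, and this complex binds the interferon-stimulated response element in the promoters of target genes. IFIT proteins bind viral RNA and interfere with its translation, OAS enzymes sense double-stranded RNA and make short oligoadenylates in response, and MX proteins are dynamin-like GTPases that block incoming viruses. Many carcinoma lines express these genes in culture without added interferon.

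The cells were FaDu, an established line from a human squamous cell carcinoma of the hypopharynx, sampled at day 2. The study compared an shRNA against KIF2C, a microtubule-depolymerizing kinesin, with a control shRNA, which the series' design text calls a blank vector; whether clones or pools were used is not stated. Each condition had 1 library, and the rounded counts summed to 18189702 for library C1 and to 18559977 for library D1. No label says which condition C1 and D1 are. KIF2C had 783 reads in the library labelled C1 and 3036 in the library labelled D1, which goes against reading C as control and D as knock-down. Each difference is therefore given as D1 relative to C1, without a statement of which library carried the knockdown.

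Short stretches of promoter are shown first because the response element is the sequence feature through which these genes answer to interferon. RefSeq promoter windows on GRCh38.p14, of 300 bases from 250 before to 50 after each annotated start, matched 6 of the 10 members with 9 starts; IFIT2, OAS2, OASL and MX2 were not analysed here. Both strands were searched for the core GAAA, any 2 bases (NN), GAAA; for its longer form, which adds CT at the 3′ end and so contains the core; and for GAAANGAAA, a form with 1 base between the repeats that was added after the sequences were seen. Each line is the plus strand, 5′ to 3′, from 20 bases before the first match upstream of the annotated start to 20 bases after the last one, or to the base before the start where that is nearer, with matches to the core or to GAAANGAAA in capitals; a match on the other strand reads TTTC in capitals, and overlapping matches run together.

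IFIT1, chr10:89392487-89392549: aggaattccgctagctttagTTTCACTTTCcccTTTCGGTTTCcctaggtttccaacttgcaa

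IFIT3, first start, chr10:89327821-89327904: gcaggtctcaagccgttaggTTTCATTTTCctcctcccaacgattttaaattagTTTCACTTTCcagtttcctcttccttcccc

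IFIT3, second start, chr10:89332415-89332512: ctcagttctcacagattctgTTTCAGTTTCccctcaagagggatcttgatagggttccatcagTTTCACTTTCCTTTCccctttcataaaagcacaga

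IFIT5, chr10:89414503-89414567: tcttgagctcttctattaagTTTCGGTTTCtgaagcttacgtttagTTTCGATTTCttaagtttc

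OAS1, chr12:112906925-112906961: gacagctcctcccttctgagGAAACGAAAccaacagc

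OAS3, chr12:112938306-112938473: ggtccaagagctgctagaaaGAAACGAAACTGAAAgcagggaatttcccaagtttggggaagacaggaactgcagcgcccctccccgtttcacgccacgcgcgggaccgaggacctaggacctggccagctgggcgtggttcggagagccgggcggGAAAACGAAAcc

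MX1, first start, chr21:41420519-41420557: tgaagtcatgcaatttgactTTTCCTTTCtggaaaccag

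MX1, second start, chr21:41426106-41426199: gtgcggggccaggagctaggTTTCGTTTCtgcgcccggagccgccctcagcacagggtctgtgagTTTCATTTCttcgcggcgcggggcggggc

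MX1, the third start, chr21:41431834-41431883: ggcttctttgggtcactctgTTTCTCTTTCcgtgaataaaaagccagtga

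The last base shown lies 74 bases before the start for IFIT1, 93 and 17 for the first and second starts of IFIT3, 40 and 167 for the second and the third start of MX1, and 1 base before it for the others. The core was found at 7 of the 9 starts, from 5 members, against 3.57% of all 35116 promoter windows. IFIT1, both starts of IFIT3, IFIT5 and the first start of MX1 also held the longer form, which 0.273% of all windows held. IFIT5 held 3 matches to the longer form, the third across the start. At the first MX1 start the match to the longer form lay after the start, from base 12 to base 23, with a match to GAAANGAAA from base 7 to base 15, and neither is shown; the match shown there is to GAAANGAAA, as are both at the second start, and the third start held the core from 196 to 187 bases before it. OAS1 held GAAANGAAA alone, from 17 to 9 bases before its start, and that form was in 3.12% of all windows. These are matches of letters and not measured binding.

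All 10 members had lower ratios in library D1, and 6 of them were at least 2-fold lower. They were MX1, MX2, IFIT1, IFIT2, OAS1 and OAS2. In comparison, 4.54% of 13225 genes past the expression filter of 1 CPM were at least 2-fold lower and 49.0% lay below 0. All 10 members also had at least 10 CPM in at least 1 library. MX2 did so in library C1 alone, with 19.89 CPM there and 4.66 in D1. Among the 9855 genes at this level, 2.19% were at least 2-fold lower and 1.74% higher. The median log2 ratio of the members was -1.25, beside 0.01 over all genes past the filter. In bulk RNA, fewer expressing cells and less RNA per cell cannot be told apart. With 1 library each, the values describe these libraries, and intervals cover counting error only.

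**Figure D1:**
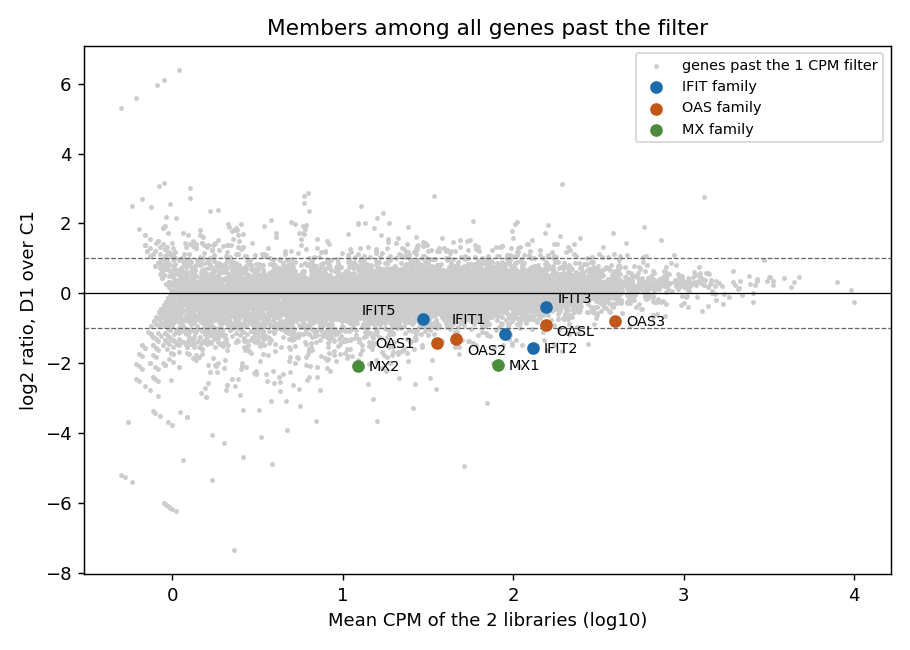
Each point is a gene past the 1 CPM filter, placed by mean CPM of both libraries (log10 axis) and by the log2 ratio of library D1 over library C1, with the 10 members coloured by family and dashed lines at a 2-fold difference. The 10 members all lie below 0, and MX1 and MX2 lie lowest among them.

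The MX family showed the largest difference of the 3 families. MX1, the cytoplasmic GTPase active against influenza and other RNA viruses, had 2477 reads in C1 and 563 in D1, and deposited TPM values of 103.18 and 22.49. Its log2 ratio was -2.05 (95% counting interval -2.18 to -1.91), a 4.13-fold lower level in library D1. MX2, a GTPase at the nuclear envelope that restricts HIV, had 377 and 83 reads, TPM values of 15.11 and 3.04, and a log2 ratio of -2.09 (-2.45 to -1.75). Their ratios did not differ from each other beyond counting error (MX1 minus MX2 0.05 on the log2 scale, -0.32 to 0.41). They were the only members at least 4-fold lower, as were 0.885% of all genes past the filter. In order of ratio from the lowest, MX2 stood at place 102 and MX1 at place 107 of 13225 genes. They lie side by side on chromosome 21, MX2 from 41362027 to 41409393 and MX1 from 41420558 to 41459214.

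The IFIT genes were lower to unequal extents. IFIT2, which binds AU-rich RNA and pairs with the other IFIT proteins, had 3696 reads in C1 and 1179 in D1 and a log2 ratio of -1.56 (-1.65 to -1.46). IFIT1, which recognises RNA caps that lack the methyl marks of the host, had 2374 and 984 reads and a ratio of -1.18 (-1.29 to -1.07). These were the members of the family past 2-fold, at 2.94-fold and 2.27-fold lower. IFIT5, which binds RNA with a phosphorylated end and acts alone, had 701 and 396 reads and a ratio of -0.73 (-0.92 to -0.55). IFIT3, which stabilises IFIT1 and increases its grip on RNA, had 3368 and 2426 reads and the smallest difference of all 10 members, with a ratio of -0.38 (-0.46 to -0.31). None of the 4 intervals overlapped another. The IFIT2 ratio minus the IFIT3 ratio was -1.18 on the log2 scale (-1.30 to -1.05), a 2.26-fold difference between them.

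**Figure D2:**
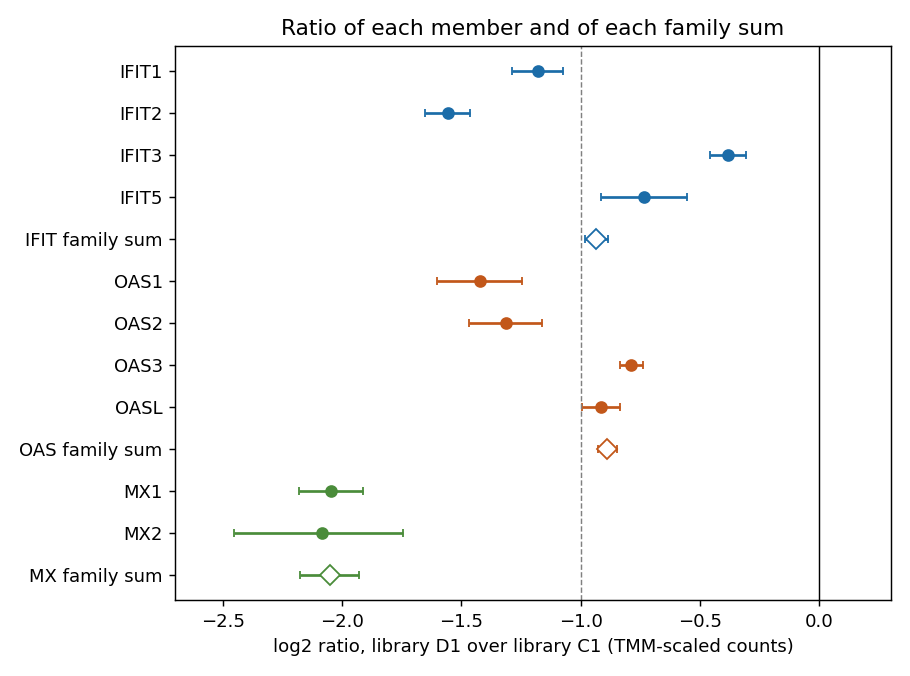
Filled circles are the log2 ratios of library D1 over library C1 for each member and open diamonds those of the summed counts of each family, with 95% counting intervals as bars and a dashed line at 2-fold lower. MX1 and MX2 lie near -2, the OAS genes form a lower pair (OAS1, OAS2) and a higher pair (OAS3, OASL), and the IFIT genes spread from -1.56 to -0.38.

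Among the OAS genes, OAS1 and OAS2 differed more between the libraries than OAS3 and OASL. OAS1, the smallest synthetase of the family, had 987 reads in C1 and 346 in D1 and a log2 ratio of -1.42 (-1.60 to -1.24). OAS2, which joins OAS units in tandem, had 1259 and 476 reads and a ratio of -1.31 (-1.47 to -1.16). Both were at least 2-fold lower, and their ratios did not differ beyond counting error (OAS1 minus OAS2 -0.11 on the log2 scale, -0.34 to 0.12). OAS3, the longest family member, with the most tandem units, had 9553 and 5202 reads and a ratio of -0.79 (-0.84 to -0.74). OASL, which lacks synthetase activity, carries ubiquitin-like repeats and enhances signalling by the RNA sensor RIG-I, had 3841 and 1917 reads and a ratio of -0.91 (-0.99 to -0.83). OAS3 and OASL were 1.73-fold and 1.88-fold lower, short of the 2-fold threshold. The OAS1 ratio minus the OAS3 ratio was -0.64 on the log2 scale (-0.82 to -0.45). OASL passed 2-fold under 3 of the 5 alternative ratio settings, with a ratio down to -1.07, so 7 members were then past it. Over all genes, 743 to 818 were then at least 2-fold lower, against 601 in the main setting.

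As families, the IFIT and OAS genes differed by like factors and the MX genes by a larger one. The summed IFIT counts were 10139 in C1 and 4985 in D1, a 1.91-fold lower level (log2 ratio -0.93, -0.98 to -0.89). The summed OAS counts were 15640 and 7941, a 1.85-fold lower level (-0.89, -0.93 to -0.85). The summed MX counts were 2854 and 646, a 4.15-fold lower level (-2.05, -2.18 to -1.93). The ratio of the IFIT sum was 2.17-fold that of the MX sum and the ratio of the OAS sum was 2.24-fold that of the MX sum, whereas IFIT and OAS were -0.05 apart on the log2 scale with an interval from -0.11 to 0.02. On summed counts the IFIT ratio was the lower of these 2, but on summed TPM the OAS ratio was (-1.095, against -0.99 for IFIT). The deposited FPKM gave -1.06 for OAS and -0.96 for IFIT. The sums depended on their abundant genes. Without IFIT3 the IFIT ratio was -1.31, without IFIT2 it was -0.67, and without OAS3 the OAS ratio was -1.06. The median member ratio was -0.96 for IFIT, -1.11 for OAS and -2.07 for MX.

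Levels between genes were compared on the deposited TPM, which takes transcript length into account. OASL had the highest level of the 10 members in both libraries, with 239.56 TPM in C1 and 114.27 in D1. OAS3 had 168.01 and 87.77 TPM, IFIT3 164.17 and 113.52, and IFIT2 126.64 and 38.73. IFIT1 had 63.80 and 25.34 TPM, OAS1 63.24 and 22.16, OAS2 40.52 and 15.24, and IFIT5 20.18 and 10.93. MX2 was the lowest member in both libraries. The order was therefore much the same, but IFIT3 moved from the third place to level with OASL, and MX1 from the fifth place to the sixth. Neighbours in the order that overlapped within counting error were OAS3 with IFIT3 and IFIT1 with OAS1 in library C1, and OASL with IFIT3, IFIT1 with MX1 and MX1 with OAS1 in library D1. Together the members made up 1004.41 of each 1000000 TPM in C1 and 453.49 in D1.

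**Figure D3:**
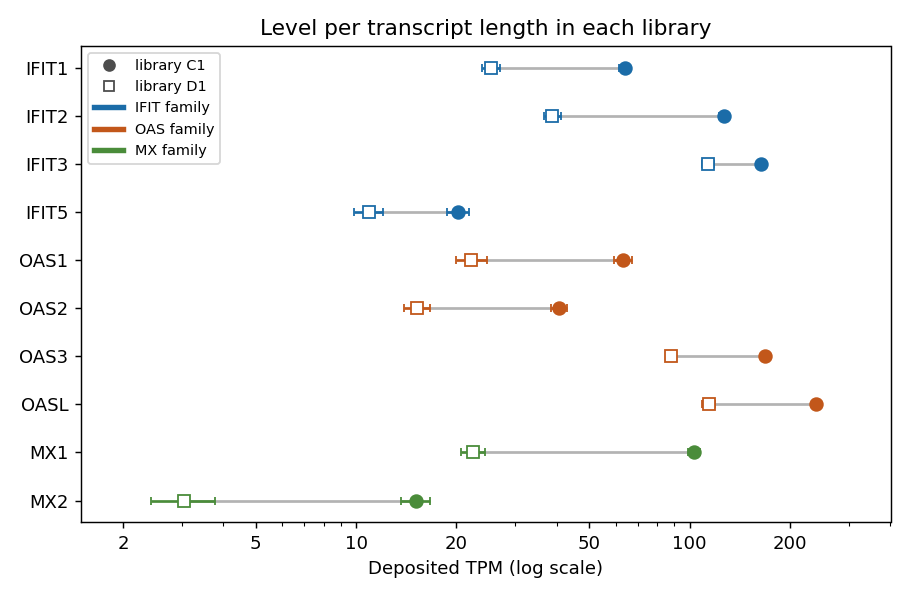
Deposited TPM of each member on a log axis, with filled circles for library C1, open squares for library D1, bars for the 95% Poisson counting interval and colours for the family. Each open square lies left of its filled circle; the gap is widest for MX1 and MX2 and narrowest for IFIT3.

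The make-up of the IFIT family shifted toward IFIT3. On TPM, IFIT3 was 43.8% of the IFIT sum in C1 and 60.2% in D1, while IFIT2 was 33.8% and 20.5%. On counts the IFIT3 share was 33.2% (exact binomial interval 32.3% to 34.1%) and 48.7% (47.3% to 50.1%). In the OAS family, the OAS1 share of TPM was 12.4% in C1 and 9.25% in D1, and OASL held 46.9% and 47.7%. In the MX family, MX1 was 87.2% and 88.1% of TPM, and its count shares of 86.8% (85.5% to 88.0%) and 87.2% (84.3% to 89.6%) overlapped.

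**Figure D4:**
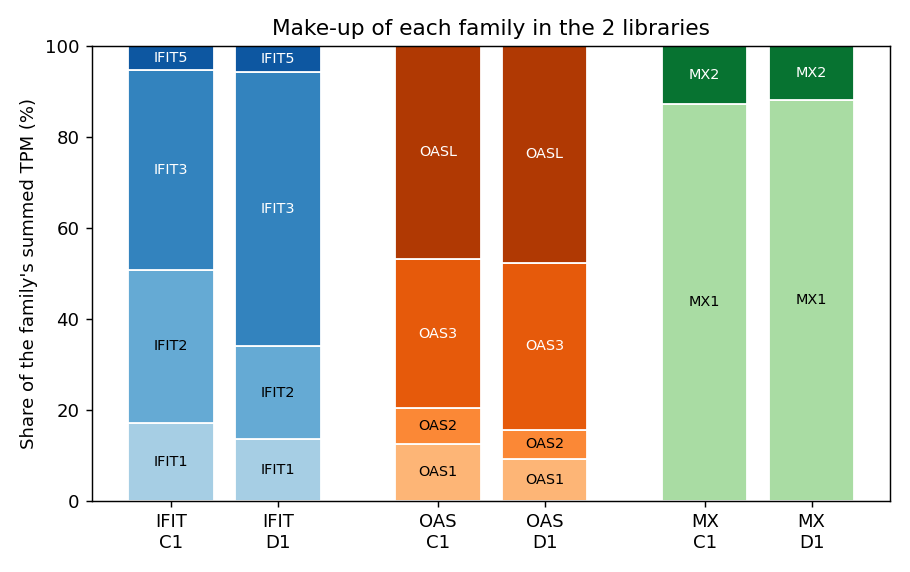
Stacked bars give the share of each member in its family's summed TPM (percent, from 0 to 100) in libraries C1 and D1. IFIT3 takes 43.8% of the IFIT bar in C1 and 60.2% in D1, whereas the MX bars are alike.

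The count and FPKM of a gene together give the effective transcript length that the quantification used, which depends on the mix of isoforms. For OAS1 this length was 1789 bases in C1 and 1716 in D1, a change of -4.03%. For OAS2 it was 3560 and 3429 bases, a change of -3.70%, and for MX2 it was 2860 and 3013 bases, a change of 5.37%. Rounding of the FPKM values can move these by at most 0.40%. In the other 7 members the length differed by at most 0.29%. Changes beyond 3% were found in 14.4% of the 10269 genes that had 100 counts or more and an FPKM of at least 1 in each library. MX2 itself had 83 reads in library D1.

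Assignment of reads among similar genes could touch part of these values. Estimated counts were whole numbers in both libraries (within 0.005) for IFIT2, IFIT5 and OAS2, with ratios of -1.56, -0.73 and -1.31, and carried fractions for the other 7 members. IFIT1B, an IFIT1-like gene within the same cluster that was named after its value was seen, had 9 and 3 reads. The split of shared reads between near-identical transcripts is uncertain, and strand use in counting is not stated in the labels.

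The members lie in 4 loci. The IFIT genes span chromosome 10 from 89302046 to 89420997, OAS1, OAS3 and OAS2 span chromosome 12 from 112906962 to 113011723, and OASL lies on chromosome 12 from 121017761 to 121039246. The 3 nearest protein-coding genes past the filter on each side of each locus made 25 genes with LIPA, whose annotated span overlaps the IFIT cluster. A 2-fold lower level was met by 2 of them and a 2-fold higher level by none. Of all genes past the filter, 4.54% and 2.40% met these. The median log2 ratio of the neighbours was -0.06. Of their 25 ratios 14 were negative, beside 49.0% of all genes past the filter.

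Beside the IFIT cluster, LIPA, the lysosomal acid lipase, had a ratio of -0.18, the kinase gene PANK1 -0.06 and the kinesin gene KIF20B -0.15. STAMBPL1, a deubiquitinase, had -0.35, the smooth muscle actin gene ACTA2 0.02 and the death receptor gene FAS -0.67. The serotonin receptor gene HTR7, 1319.8 kb from the IFIT cluster, had -0.06. Beside the OAS1 to OAS2 cluster, HECTD4 had -0.19, the ribosomal protein gene RPL6 0.46, the phosphatase gene PTPN11 0.39, RASAL1 -0.16, the helicase gene DDX54 0.23 and RITA1 0.15. Each of these neighbours differed less than 2-fold.

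Around OASL, the dehydrogenase gene ACADS had -0.45, the protease gene SPPL3 -0.19, the purinergic receptor genes P2RX7 and P2RX4 0.37 and -0.80, and the kinase gene CAMKK2 0.52. Beside the MX genes, the protease gene BACE2 had -0.12, the kinase gene RIPK4 0.45 and PRDM15 0.22. The neighbours past 2-fold were both rarely read and passed the filter through library C1 alone. TMPRSS2, the serine protease gene at 5.1 kb from MX1, had 27 reads in C1 and 4 in D1 (-2.52, -4.64 to -1.14). The readthrough gene GET1-SH3BGR, 1846.5 kb from the MX locus, had 30 and 2 (-3.52, -6.93 to -1.84). SH3BGR, which shares exons with the latter, had 16 and 27 reads (0.83), so reads split between these is uncertain.

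Upstream in the pathway, interferon transcripts were scarce in both libraries. Of the 12 interferon genes listed, 8 had a row in the table, with 91 reads in all in C1 and 44 in D1. IFNE, an epithelial type I interferon, was the sole ligand gene past the filter, with 69 and 36 reads (-0.84, -1.47 to -0.25). IFNL1, a type III interferon, had 13 and 3 reads (-1.86, -4.48 to -0.16). IFNB1 had 1 read in C1 and 0 in D1, where a count of 0 allows up to 3 reads, as did IFNA8 and IFNW1; IFNA1 had 4 and 3 reads, IFNA5 0 and 1, and IFNL3 2 and 1. IFNA2, IFNK, IFNL2 and IFNG were not analysed here.

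None of the 6 receptor genes reached 2-fold, with a list median of -0.14. The type I receptor chains IFNAR1 and IFNAR2 had ratios of -0.40 and -0.08, the type III chain IFNLR1 0.34 and its partner IL10RB -0.20, and the interferon gamma chains IFNGR1 and IFNGR2 -0.27 and 0.00. Of 11 JAK, STAT and IRF genes, 2 were at least 2-fold lower and none higher, and the median was -0.14. Over all genes past the filter, 4.54% were at least 2-fold lower and 2.40% higher, with a median of 0.01. IRF9, the DNA-binding subunit of ISGF3, had 2178 and 699 reads (-1.55, -1.67 to -1.43). IRF7, an interferon-induced regulator of interferon genes, had 440 and 173 reads (-1.25, -1.52 to -0.9996).

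STAT2, which joins IRF9 in ISGF3, had 1152 and 826 reads and a ratio of -0.39, a smaller difference than that of IRF9. The kinases had ratios of -0.05 for JAK1, -0.30 for JAK2 and -0.13 for TYK2. STAT3 had 0.15, IRF1 0.00, IRF2 -0.14 and IRF3 0.10. Of 8 genes listed as inhibitors of interferon signalling, 1 was at least 2-fold lower. It was USP18, an isopeptidase that blocks IFNAR2 and is itself induced by interferon, with 427 and 132 reads (-1.60, -1.90 to -1.32). None was 2-fold higher and the list median was 0.14, beside the same all-gene shares of 4.54% lower and 2.40% higher. The other inhibitors had ratios of 0.42 for SOCS1, -0.26 for SOCS3, -0.14 for PIAS1, 0.43 for PTPN1, 0.63 for PTPN2, -0.10 for PTPN6 and 0.39 for PTPN11.

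Around the OAS products, PDE12, which degrades these oligoadenylates, had 978 and 755 reads (-0.28). ABCE1, which recycles ribosomes, had 3136 and 4186 reads (0.51, 0.44 to 0.57). Neither reached 2-fold.

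Of 47 other type I interferon-induced genes, 8 had a level at least 2-fold lower in D1 and none had one 2-fold higher; 43 ratios were negative and the median was -0.55. Among all genes past the filter the shares were 4.54% lower and 2.40% higher, and 49.0% of ratios were negative. The lowest were IFI44L (-2.74), the pro-apoptotic XAF1 (-1.71), RSAD2, the antiviral enzyme viperin (-1.67), and the mitochondrial proteins IFI27 (-1.46) and IFI6 (-1.37). MX1 and MX2 thus lay below all of these but IFI44L. The highest were the RNA-editing enzyme gene ADAR (0.23), the zinc-finger antiviral gene ZC3HAV1 (0.12) and the helicase gene DDX60 (0.09). IFIT3, at -0.38, lay above the median of this list.

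Genes biased toward interferon gamma had a median of -0.32 over the 12 of 14 past the filter; 3 were at least 2-fold lower and none higher, beside the same 4.54% and 2.40% of all genes. CXCL10, a chemokine, had 43 and 3 reads (-3.55, -6.08 to -2.11), and IDO1, a tryptophan-degrading enzyme, had 51 and 16 (-1.55, -2.49 to -0.75). Both passed the filter through library C1 alone, with 2.27 and 2.69 CPM there and 0.17 and 0.90 in D1. The other gene past 2-fold, GBP2, had 12.19 CPM in C1 and 4.16 in D1. The guanylate-binding genes GBP2, GBP3 and GBP4 had ratios of -1.55, -0.67 and -0.41. At the other end, WARS1, a tRNA synthetase, had 0.89, the class II activator CIITA 0.01 and the immunoproteasome subunit PSMB8 -0.07.

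**Figure D5:**
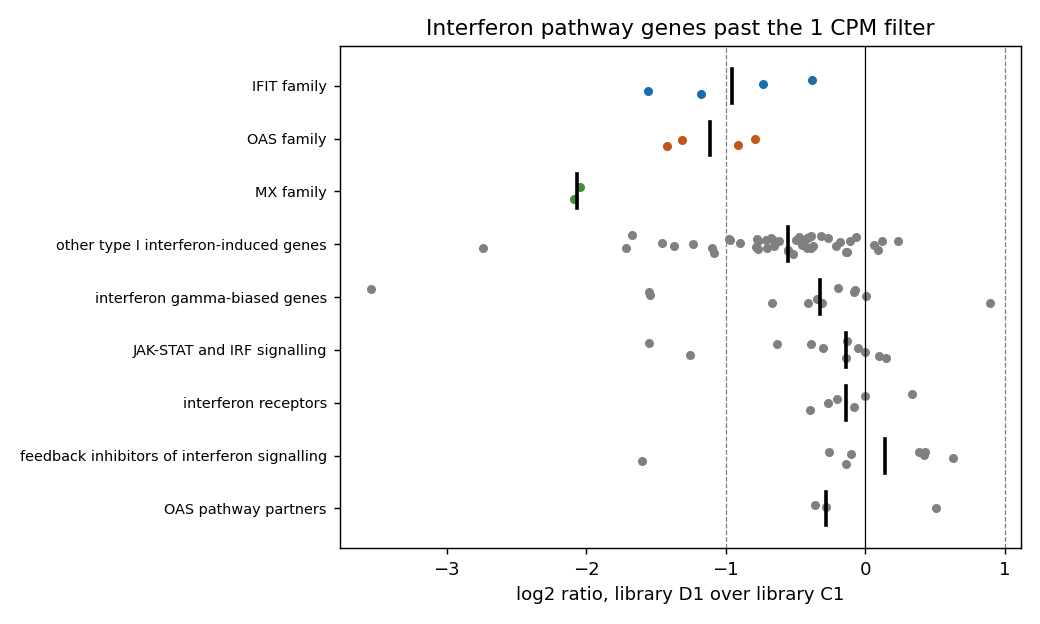
Each dot is the log2 ratio of library D1 over library C1 of a gene past the 1 CPM filter, in rows by list, with black bars at the list medians and dashed lines at 2-fold differences (vertical scatter within a row is for legibility). The MX, OAS and IFIT rows have medians of -2.07, -1.11 and -0.96, whereas the receptor and JAK-STAT rows have -0.14.

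Some markers of cell identity also differed between the libraries, the squamous ones in the opposite direction to the members. Of 9 squamous epithelial markers, 7 reached 2-fold on the higher side in D1, from KRT17 at 1.09 to KRT14 at 3.12. Among all genes past the filter, 2.40% were at least 2-fold higher and 4.54% at least 2-fold lower. The epithelial adhesion genes CDH1 and EPCAM had -0.19 and -0.08. The summed reads of the squamous list were 36848 in C1 and 102199 in D1. Of 10 leukocyte markers, 7 had a row and none reached 2-fold among the 4 past the filter, with 1314 and 1199 summed reads, most of them from CD68, and 15 and 11 reads for the pan-leukocyte gene PTPRC. Of 9 fibroblast and endothelial markers, 5 had a row, with 1034 and 293 summed reads. Most of those came from CDH5, the vascular cadherin gene, with 1000 and 249, while the collagen gene COL3A1 and the receptor gene PDGFRB each had 0 reads in C1 and 1 in D1. The part of these markers in the differences of the IFIT, OAS and MX genes was not tested.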

How the data were processed

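RNA from 2 FaDu libraries was sequenced, 1 per shRNA. The build hg38 and the tools Bowtie2 and RSEM are named per the submitters' processing notes, which give no version here. Per the file headers, the authors gave estimated counts without normalization. Per the file headers, they also gave TPM and FPKM values, as deposited.

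Estimated counts of 16951 genes were rounded to whole numbers. Trimmed mean of M values (TMM) factors from edgeR 4.0.16 (R 4.3.3) were 1.04 for library C1 and 0.960 for library D1. The log2 ratio was taken after adding 0.5 counts to each library. Its 95% interval was converted from the exact binomial (Clopper-Pearson) bounds on the share of a gene's reads that fell in D1. Intervals on TPM are exact Poisson intervals of the count. The labels name no molecular identifiers, and all intervals cover counting error only. Calls by size used 2-fold among genes at 1 CPM (count per 1000000 of effective library size) or more in at least 1 library. With 1 library per group there is no replicate, no test and no p-value. Of the gene identifiers, 16887 matched RefSeq GRCh38.p14, which gave coordinates. The ratio procedure was checked on simulated Poisson counts, which hold counting error only and no variation between libraries.

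The members and gene lists were chosen with earlier results of these data known. The named genes were the 10 members, KIF2C, the shorter pathway lists and the genomic neighbours. Some genes of these lists are counted in them but not reported here by name. From each of the 2 longer interferon lists, the 5 lowest and 3 highest genes past the filter were named. Other genes named were chosen after their values were seen.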

Additional observations from a re-analysis of the deposited data

How the results depend on the processing

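All 10 member ratios stayed below 0 under the 5 other ratio settings, and none reversed. Scaling to plain totals moved all ratios by -0.12, with family ratios of -1.05 for IFIT and -1.01 for OAS. The deposited TPM gave -0.99 for IFIT, -1.095 for OAS, -2.21 for MX and -1.37 for the median member, and the deposited FPKM gave -1.06 for OAS and -2.18 for MX. The IFIT and OAS sums therefore lay on either side of 2-fold depending on scaling. The median of all genes was 0.01 with TMM, -0.11 with plain totals and -0.14 with TPM. The number of members at least 2-fold lower was 6, or 7 with plain totals, TPM or FPKM. Leaving out a member, chosen after seeing the data, gave IFIT ratios of -0.87 without IFIT1, -0.67 without IFIT2 and -1.31 without IFIT3, and an OAS ratio of -1.06 without OAS3. Over all genes, 601 were at least 2-fold lower and 318 higher with TMM. These counts were 743 and 240 with plain totals, 818 and 228 with TPM, and 763 and 244 with FPKM. With TMM but without the expression filter they were 1669 and 1040, and at 10 CPM or more 216 and 171. No paired analysis was possible because each group had 1 library. With 83 reads of MX2 in library D1, its ratio is the least precise of the 10.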
